A study of Mus musculus with 2 samples.

Results

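Collagen chains are the protein subunits that wind around each other in triplets to form the collagens of the extracellular matrix. The collagen chain genes described here are all rows of the deposited gene table with the biotype protein coding and a symbol made of Col, a number, the letter a and a number. The rule took 44 of the 54532 genes in the table. It left out 1 gene whose symbol only begins that way, Col4a3bp, which encodes a ceramide transfer protein. By class, 11 of the chains are fibrillar, 8 belong to basement membranes (the 6 chains of type IV, Col15a1 and Col18a1) and 25 to other classes.

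Fibrillar collagens such as types I, III and V assemble into the rope-like fibrils of bone and connective tissue. Type IV collagen forms the sheet-like network of basement membranes, which underlie vessels and surround fat and muscle cells, and type VI forms beaded filaments close to cells. In bone marrow, collagens are made mainly by mesenchymal stromal cells, bone-forming cells, fibroblasts and the cells of vessel walls, and little by blood cells.

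The labels call the cells bone marrow niche cells, sorted from mice after staining for CD45, lineage antigens and CD71 to remove blood cells, with Calcein AM and DAPI used against dead cells. Transcripts of blood cells were nevertheless abundant in both libraries, and Ptprc, which encodes CD45, was found at 9.28 FPKM in BMT and 7.85 FPKM in aGVHD_V. Both groups were CB6F1 mice, described as female, that had been irradiated with 2 doses of 4.0 Gy and received 5000000 marrow cells from B6.SJL mice 4 hours afterwards. The BMT group received nothing more, and mice of the aGVHD_V group were also given 60000000 spleen cells from female C57BL/6 mice to bring about acute graft-versus-host disease (aGVHD). The comparison asks how collagen expression of the sorted marrow cells differed with the disease model. There was 1 library per group, so no test was possible, and the age of the mice, the number of mice in a library, the time of sampling and the meaning of the V are not stated in any source at hand.

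Reads over genes numbered 10869191 in the BMT sample and 11299834 in the aGVHD_V sample, and 15477 and 12310 genes had reads. Levels are FPKM, reads scaled by gene length in kilobases and by library size as the authors set it. A gene was called measured if either sample reached an FPKM of 1. Its difference is log2(FPKM + 1) of aGVHD_V minus BMT, and a difference of 1 or more in size is called at least 2-fold. This scale understates the difference of low genes. Ratios of single genes are of FPKM without a pseudocount. Their 95% intervals count every 14 reads in the BMT sample and every 44 in the aGVHD_V sample as 1 count, the read number most often found for a detected gene in each, and cover counting error only. A gene without reads was compared through a floor of 3 counts in its library, 132 reads in the aGVHD_V sample and 42 in the BMT sample. Folds given as "at least" divide the BMT value by that floor. They leave out the counting error of the BMT value, so they are not limits of a 95% interval.

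Most collagen chains with measurable expression were lower in the aGVHD_V sample. Of the 44 chains, 19 were measured, and 14 of these were lower by at least 2-fold, none was higher by as much and 5 lay between. Over all 12942 measured genes, 19.4% were lower and 8.65% higher by that much. Among the 8 chains with an FPKM of 10 or more in either library, 7 were lower, against 7.63% of all genes at that level. Only Col4a1 of these 8 reached an FPKM of 10 in the aGVHD_V sample as well. Entry to this band thus favoured a lower call, and its count is a description only. Among the 11 chains between 1 and 10, 7 were lower, against 27.9%. Of these 7, 6 reached an FPKM of 1 in the BMT sample only, and 4 had no reads in the other, so the filter itself favoured a lower call and this count is a description only. The median difference over the 19 measured chains was -1.95 (95% order-statistic interval -2.82 to -0.66), and over all measured genes it was -0.07. Such intervals of a median, here and below, describe the spread over genes and not the spread between mice or libraries. Without the filter, over the 31 chains with reads, the median was -0.78, and with a pseudocount of 5 it was -1.14.

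**Figure D1:**
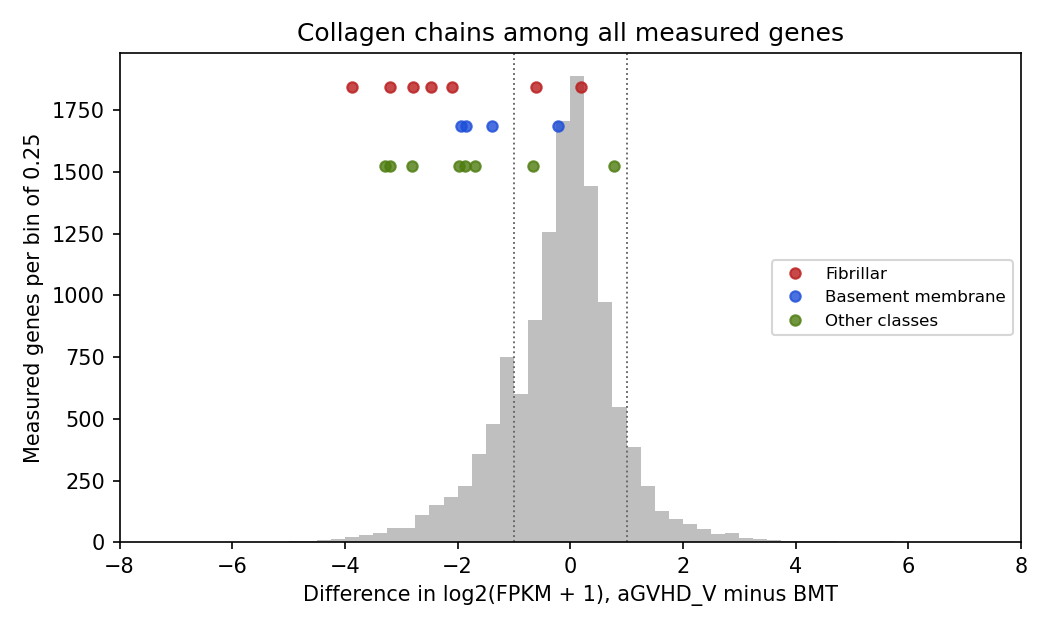
Grey bars count all 12942 measured genes by their difference in log2(FPKM + 1), aGVHD_V minus BMT, and coloured points give the 19 measured collagen chains by class, at heights chosen for display. Dotted lines mark differences of -1 and 1, and 14 of the points lie to the left of both lines and none to the right.

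Collagen transcripts together took 0.259% of the reads in the BMT sample (exact Clopper-Pearson 95% interval on the widened counts 0.248 to 0.271) and 0.0403% in the aGVHD_V sample (0.0329 to 0.0488). In FPKM the 44 chains summed to 305 and 57.7, which is 5.29-fold lower. The ratio varied by class. Summed fibrillar chains went from 102 to 17.2 FPKM (5.91-fold lower), basement membrane chains from 96.5 to 27.8 (3.47-fold lower) and the other classes from 107 to 12.7 (8.43-fold lower). As a share of the collagen reads, basement membrane chains made up 29.4% (27.4 to 31.5) in the BMT sample and 46.0% (36.2 to 56.1) in the aGVHD_V sample, and these intervals did not overlap. For type IV chains alone the intervals did overlap, at 26.6% (24.7 to 28.6) in the BMT sample and 36.3% (27.0 to 46.3) in the aGVHD_V sample. The fibrillar share was 41.5% (39.4 to 43.7) against 34.5% (25.4 to 44.5), and the share of the other classes 29.0% (27.1 to 31.1) against 19.5% (12.4 to 28.5), with overlapping intervals in both cases.

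**Figure D2:**
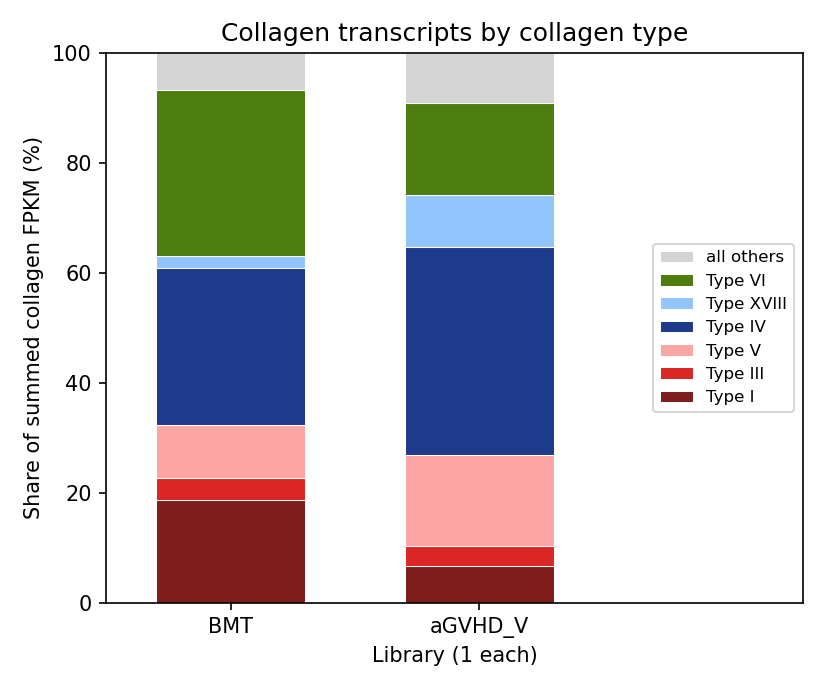
Each bar splits the summed FPKM of all 44 collagen chains of 1 library into collagen types, in percent. Type IV forms 28.5% of the BMT bar and 37.9% of the aGVHD_V bar, type I 18.7% and 6.69%, and type VI 30.2% and 16.8%.

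Most of the cell types that make collagen had mainly lower markers in the aGVHD_V sample, while pericyte and smooth muscle markers were lower only in part. Over all measured genes 19.4% were at least 2-fold lower and 8.65% higher, the shares to set beside each marker count here. In the aGVHD_V sample all 8 mesenchymal stromal markers (Cxcl12, Lepr, Kitl, Adipoq, Pdgfra, Pdgfrb, Ebf3 and Foxc1) were at least 2-fold lower. Their summed FPKM was 25.3 against 538, and Lepr was at 0. All 5 measured of 7 fibroblast markers were lower (8.73 against 79.7), as were all 5 measured of 7 osteoblast markers (1.64 against 26.7), of which Ibsp, Sp7, Dmp1, Phex and Bglap were at 0 and Bglap also in the BMT sample. Of 8 endothelial markers 7 were lower (6.77 against 48.8), with Cdh5, Kdr, Cldn5 and Tek at 0. Of 7 measured pericyte and smooth muscle markers out of 8, 3 were lower and none was higher (83.4 against 147). Of 6 chondrocyte markers 1 was measured, Comp, at 4.28 in the BMT sample and 0 in the aGVHD_V sample, and Acan, Hapln1, Matn1 and Chad were at 0 in both. Blood cell markers went in several directions. All 5 measured of 6 B lineage markers were lower, with a summed FPKM of 66.7 in the BMT and 1.505 in the aGVHD_V sample, a larger ratio (44.3) than that of the mesenchymal markers (21.3). Of 4 measured megakaryocyte markers out of 5, 3 were higher (265 in the aGVHD_V sample against 75.1 in the BMT sample). So were 4 of 6 erythroid markers (131975 in the aGVHD_V against 37114 in the BMT sample). The 7 neutrophil markers lay within 2-fold (19519 in the aGVHD_V against 14662 in the BMT sample), as did 4 of 5 macrophage markers (106 in the aGVHD_V against 111 in the BMT sample). Many of the lower markers reached an FPKM of 1 in the BMT sample only, among them all measured osteoblast markers, Comp, Lum and Fbln1. The filter itself favoured a lower call for those, and the counts of lower markers are a description only. Fold intervals of Alpl (0.761 to 998), Fbln1 (0.572 to 175), Lum (0.970 to 56535), Pi16 (0.996 to 9.26) and Tie1 (0.815 to 350) included no difference. Floor bounds of Sp7, Tek and Vpreb1 were under 1. The part of these marker shifts in the collagen values was not tested. In such libraries of many sorted cells, fewer cells of a type and less RNA per cell cannot be told apart.

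Among the fibrillar chains, 7 of 11 were measured and 5 were lower by at least 2-fold, against 19.4% of all measured genes. The class had a median of -2.47 (interval -3.87 to 0.19, -1.44 over the chains with reads when no filter was used, and -1.28 with a pseudocount of 5). Type I collagen, the main collagen of bone, is built from the chains of Col1a1 and Col1a2. Col1a2 (ENSMUSG00000029661, chromosome 6, 4504814 to 4541544, plus strand, GRCm38) had 5112 reads in the BMT sample and 184 in the aGVHD_V sample, or FPKM of 33.9 and 1.39, the steepest difference of any measured chain with reads in both libraries (-3.87). Col1a1 (ENSMUSG00000001506, chromosome 11, 94936224 to 94953042, plus strand) had 1844 and 173 reads, or FPKM of 23.2 and 2.47. The chains were thus lower by different factors, 24.4-fold (9.64 to 86.8) for Col1a2 and 9.37-fold (3.55 to 35.4) for Col1a1, but the intervals overlapped. The ratio of Col1a1 to Col1a2, per length, was 0.683 (0.555 to 0.836) in the BMT sample and 1.78 (0.332 to 9.31) in the aGVHD_V sample, a 2.61-fold change whose interval (0.506 to 15.03) includes no change. Both chains of type I together made up 24.7% of the collagen reads (22.8 to 26.6) in the BMT sample and 7.84% (3.47 to 14.8) in the aGVHD_V sample.

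Type III collagen is a homotrimer of the Col3a1 chain and accompanies type I in soft tissue and in the reticular fibres of marrow. Col3a1 (chromosome 1, 45311538 to 45349706, plus strand) had 1447 reads in the BMT sample and 218 in the aGVHD_V sample, FPKM of 12.2 and 2.08, which is 5.84-fold lower (2.41 to 18.5). Its share of the collagen reads was close in the 2 libraries, at 5.13% (4.21 to 6.19) and 4.79% (1.56 to 10.9).

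The chains of type V collagen, a regulator of fibril diameter found within type I fibrils, differed from each other. Col5a1 (ENSMUSG00000026837, chromosome 2, 27886425 to 28039514, plus strand) had 1480 and 828 reads, FPKM of 14.4 and 9.15, a ratio of 1.57 (0.956 to 2.72) whose interval includes no difference. Col5a2 (chromosome 1, 45374321 to 45503282, minus strand), the usual partner of Col5a1 in the heterotrimer, had 806 and 44 reads, FPKM of 6.93 and 0.43, and its fold of 16.1 had an interval of 2.78 to 647. Col5a3 (chromosome 9, 20770050 to 20815067, minus strand), a further chain of the type, had 674 reads (FPKM 8.16) in the BMT sample and none in the aGVHD_V sample, at least 4.49-fold lower. Within type V, then, only Col5a1 lay within 2-fold.

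The ratio of Col5a1 to Col5a2, per length, went from 2.07 (1.49 to 2.91) in the BMT sample to 21.3 (3.38 to 884) in the aGVHD_V sample. The change of this ratio, 10.2-fold, had an exact conditional 95% interval of 1.56 to 439, which does not include 1 although the Col5a2 level of the aGVHD_V sample rests on 1 count. Exons of Col5a1 share 113 bases with Gm13372, an unclassified transcript of the opposite strand with no reads in the BMT sample and 45 in the aGVHD_V sample. Whether the counting used strand is not given, so reads over those bases cannot be assigned, but they are few beside the 828 of Col5a1. With the aGVHD_V values rescaled so that both samples had equal FPKM sums, the difference of Col5a1 was -1.11 in place of -0.60 and passed 2-fold. The share of type V in the collagen reads was 10.5% (9.20 to 11.9) in the BMT and 19.2% (12.1 to 28.1) in the aGVHD_V sample, with intervals that did not overlap, while its summed FPKM was 3.08-fold lower.

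The stretches of 250 bases before the RefSeq transcription starts are shown for Col5a1 and Col5a3, which belong to the same collagen type but differed in response, and for Col3a1, a fibrillar chain that was lower. They are from RefSeq on GRCm38.p6, written 5′ to 3′ on the strand of the gene, and capitals mark a CCAAT box (CCAAT or ATTGG), a GC box (GGGCGG or CCGCCC) or a TATAAA element (TATAAA or TTTATA), each searched on both strands. The windows are chr2:27886175-27886424 on the plus strand, chr9:20815068-20815317 on the minus strand and chr1:45311288-45311537 on the plus strand.
Col5a1: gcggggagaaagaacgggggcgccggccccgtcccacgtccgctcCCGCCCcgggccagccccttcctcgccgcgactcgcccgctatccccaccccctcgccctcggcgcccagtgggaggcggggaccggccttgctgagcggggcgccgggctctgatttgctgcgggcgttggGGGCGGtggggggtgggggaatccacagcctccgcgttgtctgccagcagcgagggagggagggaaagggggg
Col5a3: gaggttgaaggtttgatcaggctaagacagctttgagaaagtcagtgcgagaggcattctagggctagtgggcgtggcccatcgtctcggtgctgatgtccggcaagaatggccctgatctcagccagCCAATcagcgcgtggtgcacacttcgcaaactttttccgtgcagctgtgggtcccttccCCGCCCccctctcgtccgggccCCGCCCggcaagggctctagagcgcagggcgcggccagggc
Col3a1: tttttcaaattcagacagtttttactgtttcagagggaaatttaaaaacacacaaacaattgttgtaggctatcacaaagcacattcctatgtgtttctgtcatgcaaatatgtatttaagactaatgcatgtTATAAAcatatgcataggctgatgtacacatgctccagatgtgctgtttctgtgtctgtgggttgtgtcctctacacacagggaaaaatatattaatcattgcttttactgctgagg

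The Col5a1 window has a G and C content of 76.4% and holds GC boxes that begin 205 and 73 bases before the start. The Col5a3 window (62.8%) holds a CCAAT box at 122 bases and GC boxes at 63 and 41 bases before the start. The Col3a1 window is poor in G and C (35.2%) and holds a TATAAA element at 117 bases before the start and none of the other motifs. Of the 19 measured chains, 16 were found in the RefSeq promoter table. A CCAAT box was found for 6 of them, a GC box for 10 and a TATAAA element for 2. The shares over 32851 promoter windows of this length, with those on chromosome 18 left out, were 33.8%, 32.7% and 12.4%. A chain counted if any of its listed starts held the motif. These matches describe letters in the windows and were not set against binding data.

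The remaining fibrillar chains were low. Col11a2, a chain of cartilage-type fibrils that also occurs outside cartilage, had 112 and 122 reads, FPKM of 1.35 in the BMT sample and 1.68 in the aGVHD_V sample, with an interval of the ratio (0.187 to 5.13) that spans no difference. Col2a1, the chain of cartilage collagen, and Col11a1, its partner, had 51 and 69 reads in the BMT sample and none in the aGVHD_V sample, FPKM of 0.46 and 0.45, too few for a bound above 1. Col27a1 also had reads only in the BMT sample, 114 at an FPKM of 0.72. Col24a1 had no reads in either library.

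**Figure D3:**
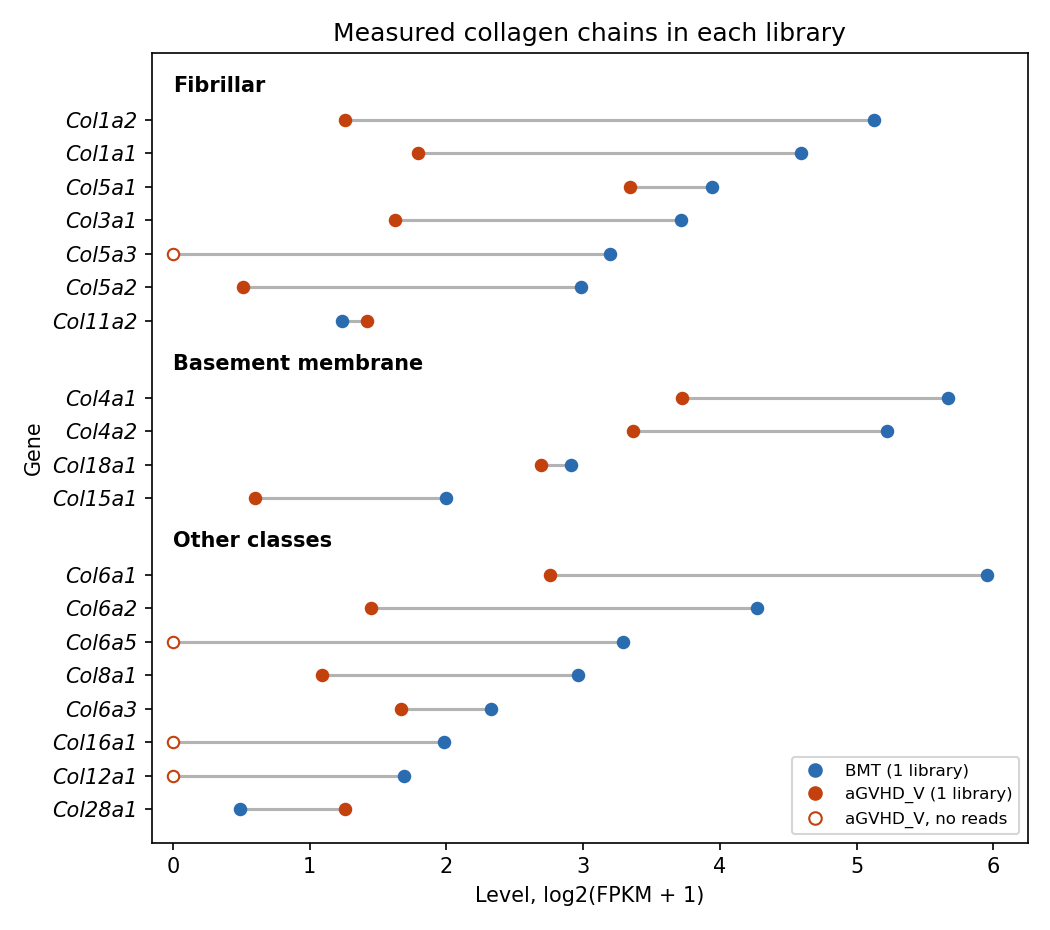
Points give log2(FPKM + 1) of each of the 19 measured collagen chains in the BMT sample (blue) and the aGVHD_V sample (orange, open where there were no reads), ordered within each class by the BMT level. The long lines of Col1a2, Col6a1, Col6a5 and Col5a3 and the short lines of Col5a1, Col18a1 and Col11a2 show how unequal the differences were within a class.

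Basement membrane chains made up 31.6% of the summed collagen FPKM in the BMT sample and 48.2% in the aGVHD_V sample, where no other class reached as much. Of 8 chains 4 were measured, and 3 of them were lower by at least 2-fold, against 19.4% of all measured genes. The class had a median of -1.62 (range -1.95 to -0.22, -0.31 over the 7 chains with reads when no filter was used, and -1.03 with a pseudocount of 5). Col4a1 and Col4a2 encode the chains of the common type IV network. Col4a1 (ENSMUSG00000031502, chromosome 8, 11198423 to 11312826, minus strand) had 4503 reads in the BMT sample and 969 in the aGVHD_V sample, FPKM of 49.7 and 12.2. Col4a2 (ENSMUSG00000031503, chromosome 8, 11312805 to 11449287, plus strand) had 2914 and 658 reads, FPKM of 36.3 and 9.32.

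These genes lie head to head, and their annotated first exons overlap by 22 bases. Their folds were alike, 4.09 (2.65 to 6.61) for Col4a1 and 3.89 (2.31 to 7.09) for Col4a2. The ratio of Col4a1 to Col4a2, per length, was 1.37 (1.15 to 1.64) in the BMT sample and 1.31 (0.647 to 2.71) in the aGVHD_V sample, a change of 0.953-fold with an interval of 0.458 to 2.01. In the BMT sample Col4a1 and Col4a2 came next after Col6a1 among the chains, and in the aGVHD_V sample they were the most abundant, closely followed by Col5a1.

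The other type IV chains, which build the specialised networks of kidney, lung and muscle, were under an FPKM of 1. Col4a5 had 43 reads in the BMT sample and 24 in the aGVHD_V sample. Col4a3 and Col4a6 had 21 and 23 reads in the BMT sample only, and Col4a4 had none. These genes too lie in divergent pairs, Col4a3 with Col4a4 on chromosome 1 and Col4a5 with Col4a6 on the X chromosome, 71 and 1308 bases apart.

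The multiplexins Col18a1 and Col15a1, which carry sugar chains and link basement membranes to the matrix around them, differed in their values. Col18a1 (ENSMUSG00000001435, chromosome 10, 77052178 to 77166548, minus strand), whose C-terminal fragment is endostatin, had 556 reads in the BMT sample and 408 in the aGVHD_V sample. Its FPKM of 6.53 and 5.45 gave a ratio of 1.20 (0.577 to 2.77), the ratio nearest to 1 among the chains with an FPKM of 5 or more. It formed 2.14% of the summed collagen FPKM in the BMT sample and 9.45% in the aGVHD_V sample. Col15a1 had 230 and 35 reads, FPKM of 2.99 and 0.52, a fold of 5.78 with an interval of 0.770 to 545 that includes no difference.

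In the other classes, 8 of 25 chains were measured and 6 were lower by at least 2-fold, against 19.4% of all measured genes. Their median was -1.93 (interval -3.29 to 0.77, -0.80 over the chains with reads when no filter was used, -3.01 with an FPKM minimum of 5, and -3.35 and -0.81 with pseudocounts of 0.1 and 5). Type VI collagen is built from the chains of Col6a1 and Col6a2 with a larger one, usually that of Col6a3. Col6a1 (ENSMUSG00000001119, chromosome 10, 76708792 to 76726168, minus strand) was the most abundant collagen chain of the BMT sample, with 3234 reads and an FPKM of 60.9, and had 269 reads and an FPKM of 5.76 in the aGVHD_V sample. Col6a2 (chromosome 10, 76595762 to 76623630, minus strand) had 1844 and 154 reads, FPKM of 18.3 and 1.73. Col6a3 (chromosome 1, 90765923 to 90843971, minus strand) had 583 and 278 reads, FPKM of 4.02 and 2.18.

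Col6a1 and Col6a2, neighbours on chromosome 10, were lower by nearly equal factors, 10.6-fold (4.82 to 28.8) and 10.5-fold (3.79 to 44.2), and their ratio was 3.33 in the BMT and 3.32 in the aGVHD_V sample. Col6a3 was 1.84-fold lower with an interval of 0.793 to 5.15 that includes no difference. The ratio of Col6a1 to Col6a3, per length, was 15.2 (10.9 to 21.6) in the BMT sample and 2.64 (0.723 to 9.59) in the aGVHD_V sample, and the change, 0.174-fold, had an interval of 0.0466 to 0.722 that does not include 1. With that rescaling to equal sums the difference of Col6a3 was -1.03 and passed 2-fold.

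Col6a5, which can take the place of Col6a3 in the trimer, had 1006 reads (FPKM 8.81) in the BMT sample, more per length than Col6a3 there, and none in the aGVHD_V sample, at least 6.70-fold lower. This was the highest lower bound among the chains without reads there. Col6a4 had 28 reads in the BMT sample only, and Col6a6 had none in either. The 3 genes lie side by side on chromosome 9, in the same orientation.

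Chains that sit on fibril surfaces or form other networks followed at lower levels. Col8a1, a short chain network collagen of vessel walls, had 644 and 94 reads, FPKM of 6.78 and 1.13, 6.02-fold lower (1.63 to 46.4), and the difference was -0.94 with a pseudocount of 5. Col16a1 and Col12a1, fibril-associated collagens, had 241 and 412 reads in the BMT sample, FPKM of 2.94 and 2.23, and none in the aGVHD_V sample, at least 1.61-fold and 2.74-fold lower. Neither passed 2-fold with a pseudocount of 5 (-0.67 and -0.53) or with genes without reads at their floor (-0.48 and -0.83). Col14a1, of the same class, had 78 reads in the BMT sample only.

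Col28a1, a chain known from peripheral nerve, was the measured chain with the most positive difference, 0.77, on 24 reads in the BMT and 73 in the aGVHD_V sample (FPKM 0.40 and 1.40). Both values are under their floors, so no ratio is given, and with a pseudocount of 0.1 the difference was 1.57. Of 5 measured Schwann cell markers out of 6, 2 were lower and 1 was higher, against 19.4% and 8.65% of all measured genes. Their summed FPKM was 59.1 in the BMT and 40.03 in the aGVHD_V sample. The part of these cells in the Col28a1 value was not tested.

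**Figure D4:**
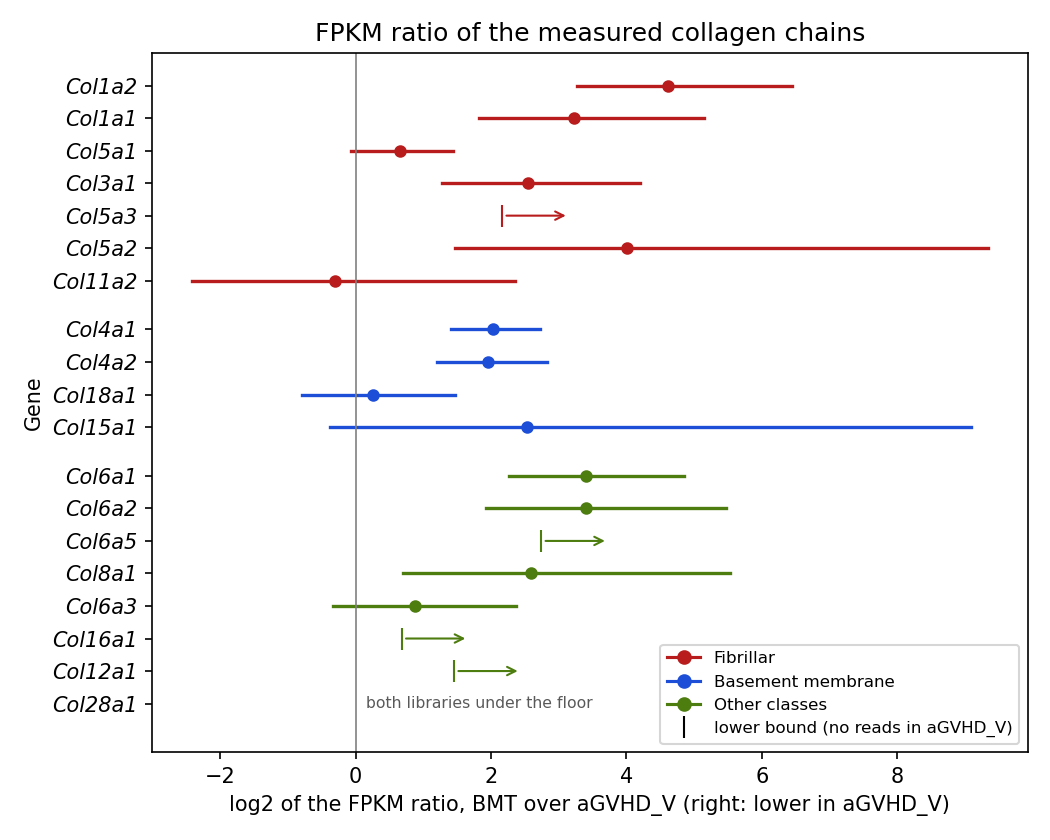
Points give the log2 FPKM ratio, BMT over aGVHD_V, of measured chains with reads in both libraries, with widened 95% counting intervals. Col28a1 has no point because both its values are under their floors. Ticks with an arrow are lower bounds of chains without reads in the aGVHD_V sample, taken from the floor without the counting error of the BMT value. Intervals of 9 chains and the bounds of 4 lie to the right of 0, and those of Col5a1, Col18a1, Col6a3, Col15a1 and Col11a2 cross it.

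The chains that were not measured number 25, and 13 of them had no reads in either library. Among these 13 are the hypertrophic cartilage chain Col10a1, all 4 transmembrane chains (Col13a1, Col17a1, Col23a1 and Col25a1), Col8a2, Col9a1, Col19a1, Col20a1 and Col22a1, beside Col24a1, Col4a4 and Col6a6 above. The other 12 had between 17 and 114 reads in the BMT sample, among them Col26a1 (30 reads) and Col7a1 of the anchoring fibrils of skin (19 reads), and 10 of them had none in the aGVHD_V sample. Col9a3, a fibril-associated chain of cartilage, kept reads in both (22 and 20), and its partner Col9a2 had 17 in the BMT sample only. Taking all chains, 31 had reads in the BMT sample, and 14 of these had none in the aGVHD_V sample (19.2% over the 13005 protein coding genes with reads in the BMT sample). Of the 19 measured chains 4 had none there, against 12.1% of all measured genes. No chain had reads only in the aGVHD_V sample.

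Genes that make, process, cross-link or bind collagen were lower in part. Of 44 such genes, 35 were measured, and 18 were lower by at least 2-fold, none was higher by as much and 17 lay between, at a median of -1.09 (-2.08 to -0.67). Over all measured genes 19.4% were lower by that much, which is the figure to set beside the counts of each role below. Most of the 18 reached an FPKM of 1 in the BMT sample only, and 9 had no reads in the other. The filter itself thus favoured a lower call, and this count and those of each role are descriptions only. Without the filter, over the 41 genes with reads, the median was -0.82. The median was -1.84 with a pseudocount of 0.1, -0.50 with one of 5 (9 genes lower, 3.89% of all measured genes), -0.67 with genes without reads at their floor (11 lower, 7.63% of all) and -2.13 with an FPKM minimum of 5 (11 of 18 lower, 10.7% of all). Of the hydroxylases and their partners, which modify prolines and lysines in new chains, 6 of 12 measured were lower. P4hb, the shared subunit of prolyl 4-hydroxylase that also acts as a general protein disulfide isomerase, had an FPKM of 161 in the BMT sample and 148 in the aGVHD_V sample, a ratio of 1.09 (0.873 to 1.36). Crtap, the partner of prolyl 3-hydroxylase, was at 18.9 and 0.79, and the interval of its fold began at 1.73. P3h4, a homologue of those enzymes, had 184 reads and none, at least 1.23-fold lower by the floor, with counting error in the BMT sample left out.

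Of the chaperones and export factors 3 of 5 measured were lower. Serpinh1, the collagen-specific chaperone HSP47, was at 75.3 and 5.61, 13.4-fold lower (4.73 to 59.3). Fkbp10, a prolyl isomerase acting on procollagen, was at 8.99 and 2.01 (interval of the fold 0.911 to 72.04), and Tmem38b, an ion channel of the endoplasmic reticulum, at 5.70 and 1.85 (0.680 to 35.7), so both intervals include no difference. Colgalt1, which adds galactose to hydroxylysine, was at 22.3 and 13.7 and within 2-fold.

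Among propeptide processing genes 3 of 5 measured were lower. Adamts2, which cleaves the N-propeptide of fibrillar procollagens, was at 9.12 and 0.65, 14.0-fold lower (3.13 to 204). Pcolce, an enhancer of C-propeptide removal, was at 17.7 and 1.30, 13.6-fold lower (2.66 to 322), and Adamts14, a relative of Adamts2, had 131 reads and none. Of the cross-linking lysyl oxidases 3 of 4 measured were lower. Lox had 525 reads and none, at least 3.50-fold lower, Loxl1 was at 17.9 and 2.28, 7.88-fold lower (1.97 to 78.06), and Loxl2 had 95 reads and 1.

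Of the receptors 3 of 8 measured were lower. Itgb1, the beta 1 chain shared by collagen-binding and many other integrins of most cell types, was at 74.5 and 78.6, a ratio of 0.948 (0.733 to 1.24). Mrc2, an endocytic collagen receptor of mesenchymal cells, had 407 reads (FPKM 5.03) and none, at least 2.71-fold lower, and Ddr2, a receptor kinase for fibrillar collagen, was at 4.28 and 0.20, with an interval of the fold that began at 1.97.

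**Figure D5:**
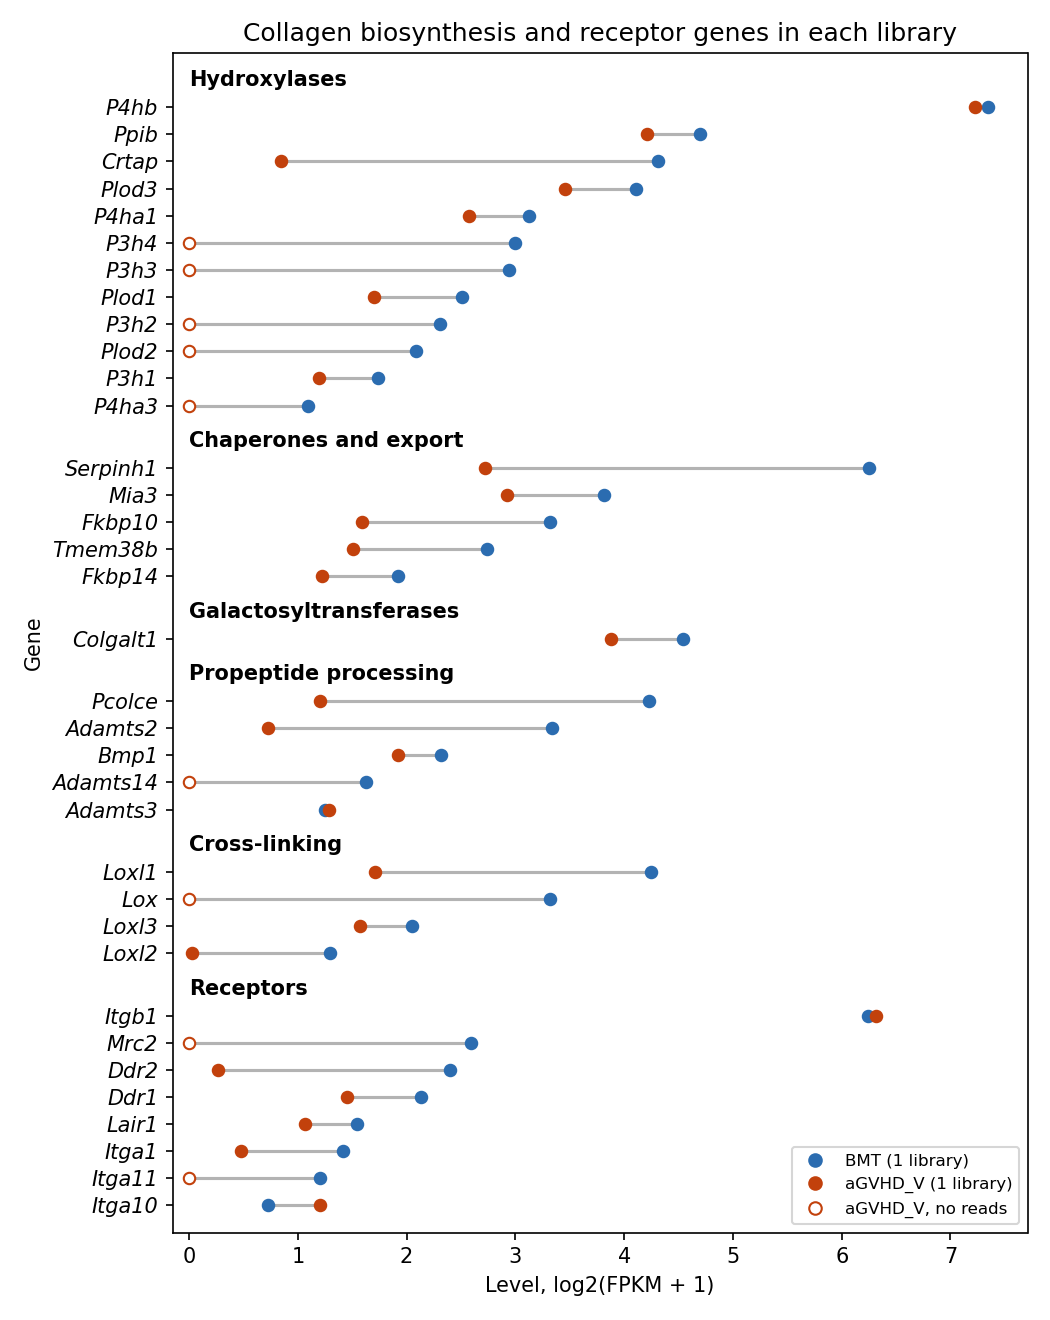
Points give log2(FPKM + 1) of the 35 measured collagen pathway genes in the BMT sample (blue) and the aGVHD_V sample (orange, open where there were no reads), grouped by role. P4hb and Itgb1 stand at similar levels in both libraries, while 9 genes, among them Lox and Mrc2, have no reads in the aGVHD_V sample.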

How the data were processed

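The deposited table gives, per the file headers, 1 FPKM value per gene for each library, with Ensembl identifiers, symbols, positions and lengths. Tools and builds listed in the submitters' processing notes are edgeR 3.18.1, GRCm38 and mm10. The sources used here do not name the aligner, the read counter or the strand setting. A column of values without a matching sample (1 in all) was left out. All 44 members had the same start and end in GENCODE release M21.

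FPKM times length was a whole multiple of a fixed step in each library (100.0% of values above 0, tolerance 0.05), which gave the reads of each gene. The step implies library sizes of 12127105 and 10661688, so the authors scaled them. The modal read number was the centre of the fullest 7-value window of read numbers, those under 4 left out. Ratio intervals were exact conditional binomial on reads divided by that number, and those of a changed ratio between chains were conditional odds ratio intervals on rounded counts (scipy 1.17.1, Python 3.11.15). The functions were tested on simulated data. The interval of a median is from order statistics, or the range under 6 members. It treats the genes as independent and does not measure variation between mice or libraries.

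The named genes were all chains, and per pathway role up to 3 genes: that with the highest mean FPKM and those with the largest difference. For genes sharing a symbol, the row with most reads was taken. The members and lists were chosen with earlier results of these data known. Alternatives changed the pseudocount, filter, scaling and treatment of genes without reads.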

Additional observations from a re-analysis of the deposited data

How the results depend on the processing

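Over the 9 alternatives the number of chains at least 2-fold lower ran from 10 with a pseudocount of 5, where 3.89% of all measured genes were that much lower, to 16 after rescaling to equal FPKM sums, where 29.1% were. It was 12 (7.63% of all) with genes without reads at their floor. All class medians stayed below 0. 10 of the 14 lower chains passed 2-fold in all 9, the exceptions being Col8a1, Col15a1, Col16a1 and Col12a1, and no difference of a lower chain changed sign. With a pseudocount of 0.1, 1 chain (Col28a1) was at least 2-fold higher, and the medians of basement membrane and other chains were -1.99 and -3.35. When both libraries were given the same FPKM sum by rescaling aGVHD_V, the basement membrane median was -1.97, and the median of genes measured in both libraries went from 0.03 to -0.45. With library sizes of all recovered reads that median gene was at -0.18. The pathway median was -0.50 with a pseudocount of 5, -2.13 with an FPKM minimum of 5 and -0.67 with genes without reads at their floor. Without hemoglobin, mitochondrial and ribosomal protein genes in the total, collagens took 0.288% and 0.0497% of the reads of the BMT and aGVHD_V libraries. As a share of the FPKM sums over all genes, those included, collagens took 0.0897% and 0.0114%. The cause of these shifts was not tested beyond the construction of each alternative. No paired analysis was possible because each group has 1 library, and no library could be left out. In the aGVHD_V library 1 count stands for about 44 reads, which limits chains of low level.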
